A study of Mus musculus with 6 samples.

Results

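5 muscle genes and the gene that overlaps each of them on the opposite DNA strand were followed in C2C12 cells treated with a screening compound. The 10 genes were taken by name from the deposited count table, which held 22753 gene identifiers, and all 10 were found. The pairs are the troponin gene Tnnc2 with Ube2c, the myosin gene Myh7 with D830015G02Rik, the myosin-binding gene Mybph with Adora1, the calcium pump gene Atp2a1 with Rabep2, and the creatine kinase gene Ckm with A930016O22Rik.

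C2C12 is an immortalised mouse myoblast line that can form muscle fibres or bone-forming cells, and it was grown here in medium with serum, in 12-well plates. The control group, of 3 samples, received medium holding 1% of the solvent DMSO for 2 days. The treated group, also of 3 samples, was kept for 2 days with 10 µM of the compound labelled ru226, a dimethyl quinolin-2(1H)-one that carries a 4-phenyl-1H-imidazol-5-yl group. No DMSO content is stated for the medium of the treated group. Libraries were made by poly-A selection from 100 ng of RNA per sample, and all 6 come from 1 cell line. The labels call the libraries stranded but name the TruSeq RNA kit v2, which does not mark strand. The labels do not state separate cultures, and the p-values therefore describe sample-to-sample spread that may be technical only.

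Between 493406 and 952813 reads per library were counted under the genes of the table, which lists genes as protein-coding and is therefore part of each library. DMSO replicate 3 had the highest total and stood apart from the other DMSO libraries in several of the genes below. Myoblast markers were present at low counts: the 8 markers summed to 109 to 193 counts per DMSO library and 118 to 162 per compound library, with Des, Vim and Msc highest. Vim, the vimentin gene, was higher with the compound by 1.21 ± 0.33 on the log2 scale (SE, adjusted p = 0.0205, edgeR) and Msc, a repressor of myogenic factors, lower, with -1.21 ± 0.40 (adjusted p = 0.0467). Both calls depended on single libraries, and were lost in 2 and 5 of the 6 fits that left 1 library out, and with DESeq2 (adjusted p = 0.0544 and 0.188). Of 5 osteoblast markers, Sp7, Bglap and Ibsp had 0 counts in every library and Runx2 held nearly all the rest, with 20 to 57 counts. Adipocyte and endothelial markers had at most 3 counts per library in sum, and leukocyte markers, nearly all Cd68, had 3 to 12. The part of any other cell type in the results was not tested. In bulk RNA, fewer cells of a type and less RNA per cell cannot be told apart.

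Muscle contracts when calcium binds troponin on the thin filament and myosin heads then pull on actin. The calcium pump of the sarcoplasmic reticulum ends the contraction by taking calcium back up, and creatine kinase restores the ATP that myosin and the pump use. These genes are in general low in dividing myoblasts and rise as myoblasts leave the cell cycle and fuse. Whether this accounts for the low counts under their names below was not tested. Their loci are dense, and in each of the 5 cases a gene on the other strand runs through some of the same exons. With these labels and no stated strand setting of the counting, reads of antisense neighbours cannot be told apart in the exon bases they share. These bases are 14.3% (Rabep2) to 39.9% (D830015G02Rik) of a partner's exonic length. Counts per gene do not show where in a gene the reads lay. The percentages of length therefore set no limit on the share of a partner's counts that is in doubt. Which strand the counts came from was not tested. Every value below is therefore a value of the counts filed under a gene's name.

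In 4 of the 5 pairs most of the shared bases are coding in the muscle gene, the exception being Mybph, with 338 bp (mm10 build, GENCODE M21 annotation). Tnnc2 (chromosome 2, 164777161 to 164779967, minus strand) shares 592 bp of exon with Ube2c, or 74.0% of its exonic length, of which 477 bp are coding in Tnnc2 and 32 bp in Ube2c. Of the 2 annotated Ube2c transcripts, 1 reaches Tnnc2, through a long last exon. Mybph (chromosome 1, 134193448 to 134201232, plus strand) shares 1162 bp, or 49.9% of its exonic length, with the last exon of Adora1. Atp2a1 (chromosome 7, 126445858 to 126463108, minus strand) shares 763 bp with Rabep2, where 4 of 9 transcripts reach it. Myh7 (chromosome 14, 54970684 to 54994626, minus strand) shares 484 bp with D830015G02Rik, which is 39.9% of the partner but 5.62% of Myh7. Ckm (chromosome 7, 19404776 to 19422841, plus strand) shares 451 bp with A930016O22Rik, which lies wholly inside the Ckm span. The other 4 pairs meet tail to tail, at the 3′ ends of both genes.

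**Figure D1:**
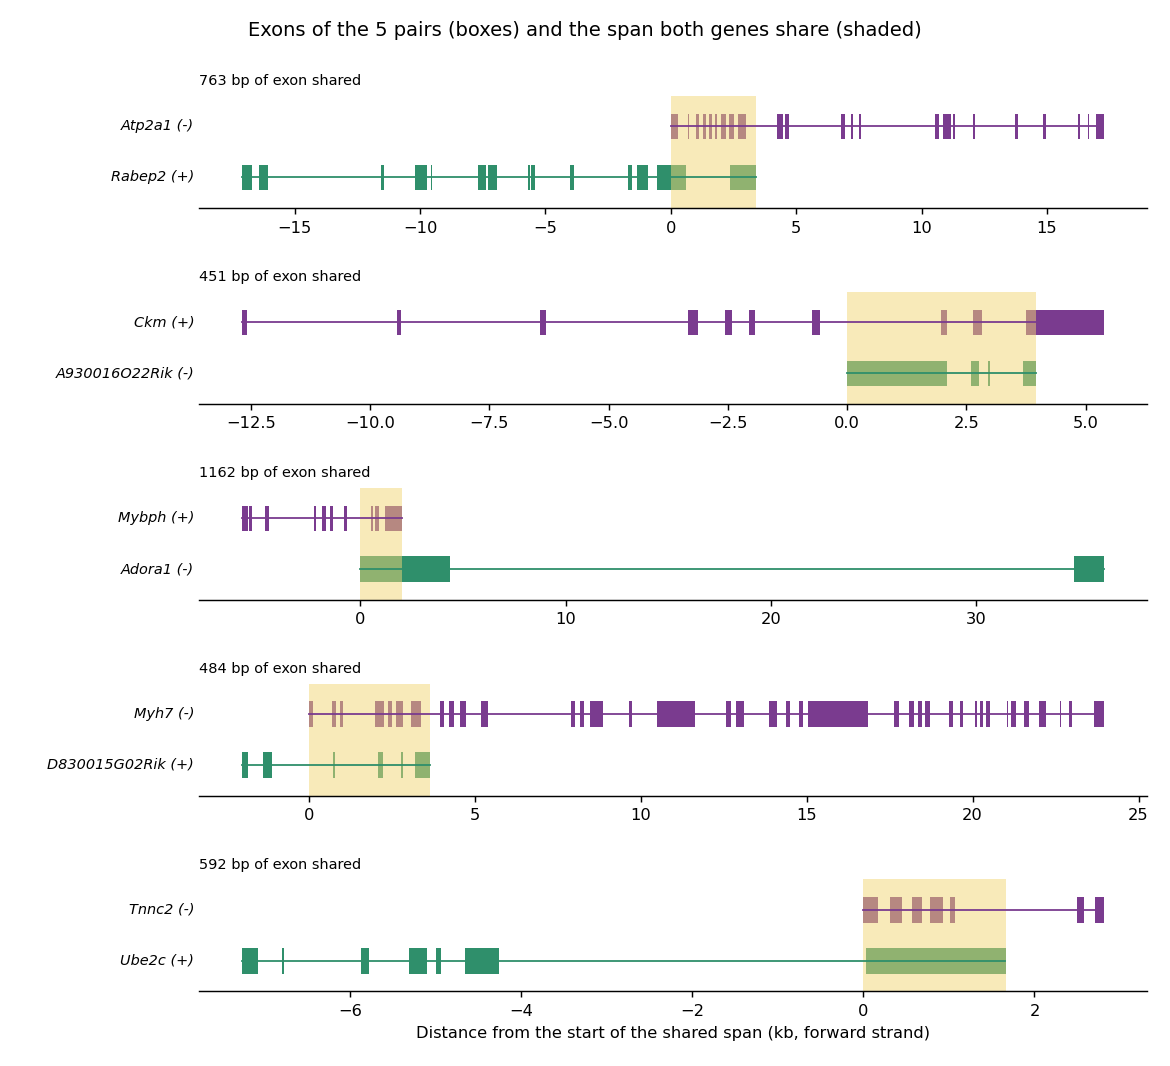
Exons of each pair drawn to scale in kb from the start of the span that both genes cover, in forward-strand direction, with boxes for exons, lines for introns and shading for the shared span. Muscle genes are on the upper row and partners on the lower row of each panel; shared exon ranges from 451 bp for the Ckm pair to 1162 bp for the Mybph pair.

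The 2 noncoding partners make the overlap easy to see, because their exons run antisense to muscle coding sequence. The 126 bp coding stretch of a Ckm exon at chr7:19420107-19420232 (mm10, plus strand) lies within an exon of A930016O22Rik on the minus strand and holds the codons around the conserved active-site cysteine of creatine kinase. The 148 bp coding stretch of Myh7 at chr14:54972765-54972912 (mm10, minus strand) is shared in the same way with D830015G02Rik on the plus strand. Capitals mark bases in exons of both genes, here all of them, read 5′ to 3′ on the strand of the muscle gene.
Ckm: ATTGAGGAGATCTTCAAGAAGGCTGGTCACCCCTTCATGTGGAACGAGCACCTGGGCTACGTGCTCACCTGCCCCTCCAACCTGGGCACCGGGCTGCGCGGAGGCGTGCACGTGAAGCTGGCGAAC
Myh7: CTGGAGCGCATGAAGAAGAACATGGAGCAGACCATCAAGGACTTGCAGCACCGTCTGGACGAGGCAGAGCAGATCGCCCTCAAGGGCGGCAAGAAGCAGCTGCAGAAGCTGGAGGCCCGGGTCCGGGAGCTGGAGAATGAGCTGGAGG

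Counts filed under all 5 partners fell with the compound, by 1.52-fold to 2.79-fold, while almost none of the counts of these loci were filed under the muscle genes themselves. Together the partners held 15831, 18140 and 20080 counts in the DMSO libraries, in replicate order, against 7131, 7077 and 7082 with the compound. The muscle genes held 70, 48 and 71 counts in DMSO and 44, 30 and 37 with the compound. As shares of library counts, the partners held 2.80%, 3.04% and 2.11% in DMSO and 1.45%, 1.37% and 1.31% with the compound. Shares of the muscle genes overlapped, at 0.0124%, 0.00804% and 0.00745% in DMSO and 0.00892%, 0.00582% and 0.00682% with the compound. Of the 10 genes, 6 had enough counts to test: the 5 partners, all lower at an adjusted p under 0.05 in edgeR's quasi-likelihood test, and Atp2a1, which did not pass. Of all 2440 tested genes, 10.5% were lower by this rule and 18% changed in either direction. The members were chosen with earlier results of these data known. The shares over other genes given here therefore serve for scale only and are no test of the 5 partners as a set. DMSO and compound libraries did not overlap under any of the 5 partners, as in 19.2% of tested genes with the compound lower. The median log2 change of the partners was -0.74, against 0.02 over all tested genes. All 5 partners belong to the 1098 tested genes that averaged 50 counts or more, of which 14.8% were lower, and to the 1039 tested genes that are the higher-counted gene of an opposite-strand pair, of which 14.6% were lower. In the authors' deposited table the 5 partners had log2 changes of -1.44 to -0.62, with adjusted p of 2.49e-15 to 0.0326.

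**Figure D2:**
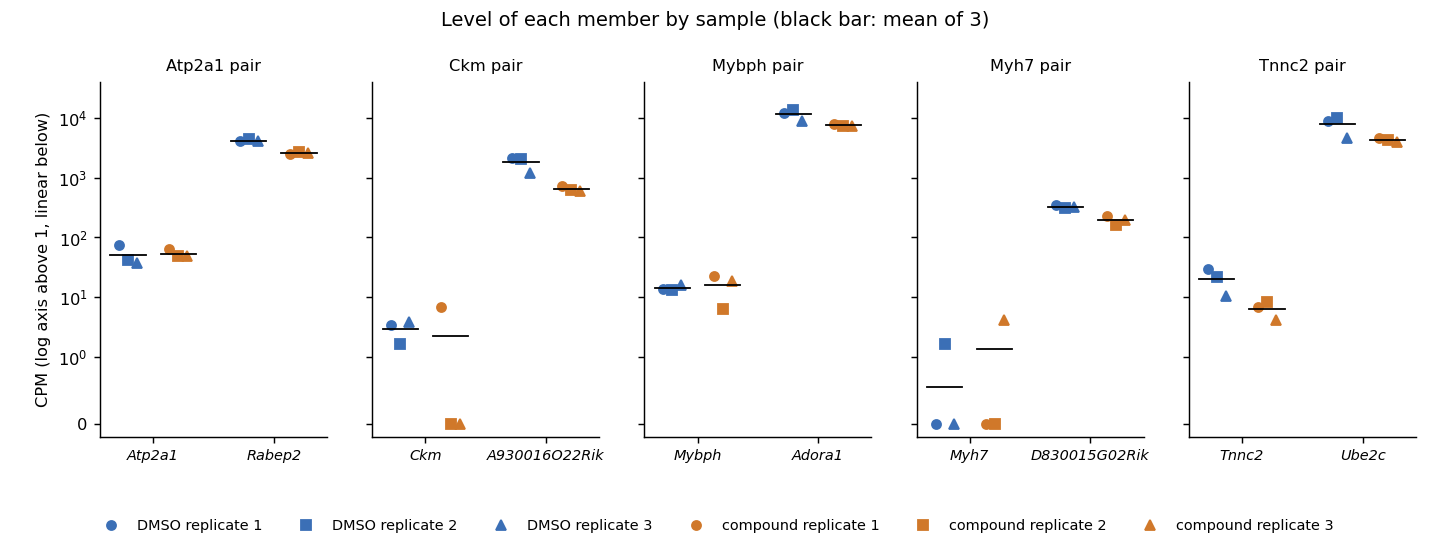
Level of the 10 genes in each of the 6 libraries in CPM, on an axis that is logarithmic above 1 and linear below, with 1 panel per pair, marker shape for the replicate and a black bar for the mean of 3. Every partner lies far above its muscle gene, and the compound libraries of every partner lie below its DMSO libraries.

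The thin filament pair was Tnnc2, which encodes the calcium-binding subunit of fast skeletal troponin, and Ube2c, which encodes the ubiquitin-conjugating enzyme that works with the anaphase-promoting complex in mitosis. Ube2c had 5201, 5934 and 4894 counts in DMSO and 2040, 2048 and 1942 with the compound. Scaled to library size, as CPM (TMM-scaled), this was 9020, 9819 and 4698 in DMSO and 4592, 4333 and 4029 with the compound. DMSO replicate 3 stood just above the highest compound library, at 49.9% of the mean of the other DMSO libraries. The log2 change of Ube2c was -0.86 ± 0.20 (SE), or 1.82-fold lower (adjusted p = 0.00815, edgeR). Without DMSO replicate 3 it was -1.13 ± 0.07, or 2.19-fold lower (adjusted p = 1.51e-18, edgeR). The call was lost without compound replicate 1 (adjusted p = 0.0582, edgeR) or compound replicate 2 (0.0538).

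Tnnc2 itself had 17, 13 and 11 counts in DMSO and 3, 4 and 2 with the compound, so the groups did not overlap here either. In CPM it stood at 20.5 ± 9.50 in DMSO and 6.46 ± 2.17 with the compound (SD, n = 3). It missed the filter on low counts and was not tested with all 6 libraries. With no filter its log2 change was -1.69 ± 0.70 (SE, adjusted p = 0.236, edgeR), and DESeq2 gave an adjusted p of 0.286. In fits that left out 1 library it passed the filter in 4 of 6, with an adjusted p (edgeR) of 0.0470 without DMSO replicate 3, and of 0.193, 0.153 and 0.261 without compound replicate 1, 2 or 3. It entered those fits through the DMSO libraries, where it is high, so the value under the threshold is no support for a change. The authors' deposited table gave Tnnc2 a log2 change of -1.22 with an adjusted p of 0.117. As under Ube2c, DMSO replicate 3 was the lowest DMSO library, at 41.4% of the mean of the others.

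The thick filament pairs hold a motor and a myosin-binding protein. Myh7 encodes the slow, or beta, myosin heavy chain of slow muscle fibres and heart. D830015G02Rik is an older symbol of Mhrt, or Myheart, a long noncoding RNA described in mouse heart, and the deposited table lists it as protein-coding. Counts under D830015G02Rik were 202, 185 and 337 in DMSO and 102, 75 and 96 with the compound. Relative to library size the DMSO libraries lay close together, at 350, 306 and 324 CPM, against 229.6, 159 and 199 CPM with the compound. The log2 change was -0.74 ± 0.19 (SE), or 1.67-fold lower (adjusted p = 0.0163, edgeR). The call was lost without compound replicate 2 (adjusted p = 0.0930, edgeR) or compound replicate 3 (0.0531).

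Under Myh7 there were 3 counts in all, 1 in DMSO replicate 2 and 2 in compound replicate 3. A count of 0 allows up to 3 counts, which is 3.15 to 6.08 CPM of the library total in these libraries, a limit that covers counting error alone. No change of Myh7 was detectable at this depth. Exons of 2 further antisense genes, Gm31251 and Gm29015, also overlap those of Myh7, by 523 and 142 bp, and neither is a gene of the table.

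Mybph encodes myosin-binding protein H of the thick filament, and Adora1 the adenosine A1 receptor, which lowers cyclic AMP through inhibitory G proteins. Adora1 had the most counts of the 10 genes, 6859, 8074 and 9364 in DMSO and 3542, 3413 and 3528 with the compound. In CPM these were 11896, 13360 and 8990 in DMSO and 7974, 7221 and 7320 with the compound. DMSO replicate 3 was the lowest DMSO library, at 71.2% of the mean of the others, and still above all compound libraries. The log2 change was -0.60 ± 0.13 (SE), or 1.52-fold lower (adjusted p = 0.00550, edgeR), and -0.76 ± 0.06 without DMSO replicate 3. Without compound replicate 2 the call was lost (adjusted p = 0.0530, edgeR). Mybph had 8, 8 and 17 counts in DMSO and 10, 3 and 9 with the compound, which overlap. Its level was 14.5 ± 1.63 CPM in DMSO and 15.8 ± 8.45 CPM with the compound (SD, n = 3), and it was too low for the main test. With no filter its log2 change was 0.01 ± 0.62 (SE, adjusted p = 0.995, edgeR), and DESeq2 gave an adjusted p of 0.968.

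The calcium-handling pair was Atp2a1, which encodes SERCA1, the fast-muscle calcium pump of the sarcoplasmic reticulum, and Rabep2, which encodes a rabaptin that acts with Rab5 in early endosome fusion. Rabep2 gave 2336, 2693 and 4216 counts in DMSO and 1123, 1249 and 1230 with the compound. It was the most even of the partners: 4051, 4456 and 4047 CPM in DMSO and 2528, 2642 and 2552 CPM with the compound. The spread within a group was small beside the gap between the groups, with a coefficient of variation of 5.61% in DMSO and 2.34% with the compound. The log2 change was -0.70 ± 0.12 (SE), or 1.63-fold lower (adjusted p = 7.41e-04, edgeR), and the call held when any single library was left out (adjusted p up to 0.0176).

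Atp2a1 was the only muscle gene with enough counts to test, at 43, 25 and 39 in DMSO and 28, 23 and 24 with the compound. In CPM it stood at 74.6, 41.4 and 37.4 in DMSO and 63.0, 48.7 and 49.8 with the compound. The DMSO range enclosed all compound values. Its log2 change was 0.10 ± 0.34 (SE, adjusted p = 0.871, edgeR). That estimate ran from -0.11 to 0.42 when single libraries were left out, so its sign depends on which libraries are used.

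The energy pair was Ckm, which encodes the muscle isoform of cytosolic creatine kinase, and A930016O22Rik, an antisense noncoding gene in GENCODE M21 that the deposited table lists as protein-coding. A930016O22Rik had the largest change of the 5 partners. Its counts were 1233, 1254 and 1269 in DMSO and 324, 292 and 286 with the compound. In CPM it stood at 2138, 2075 and 1218 in DMSO and 729, 618 and 593 with the compound, so DMSO replicate 3 lay between the other DMSO libraries and the compound libraries. The log2 change was -1.48 ± 0.20 (SE), or 2.79-fold lower (adjusted p = 1.12e-04, edgeR). Without DMSO replicate 3 it was -1.71 ± 0.10, or 3.28-fold lower, and the call held when any single library was left out (adjusted p up to 0.00378, edgeR). Ckm had 2, 1 and 4 counts in DMSO and 3, 0 and 0 with the compound, and no change was detectable at this depth. The authors' deposited table gave A930016O22Rik a log2 change of -1.44 with an adjusted p of 7.03e-07, and Ckm one of -0.19 with no adjusted p.

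Per kb of exon, the partners ranked in the same order in both groups. These values divide the counts by the full exonic length of a gene, shared bases included. Where in that length the reads lay is not known, so the order may differ for the bases that were read. In DMSO, Ube2c was highest at 3018 ± 1060 CPM per kb, followed by Adora1 at 1973 ± 384, Rabep2 at 786 ± 44.1, A930016O22Rik at 707 ± 201 and D830015G02Rik at 269 ± 18.3 (SD, n = 3). Ube2c and Adora1 differed by less than the SD of Ube2c, and Rabep2 and A930016O22Rik by less than the SD of A930016O22Rik. With the compound the levels were 1661 ± 108, 1297 ± 70.7, 484 ± 11.3, 253 ± 28.3 and 161 ± 29.3 CPM per kb in that order, and neighbours lay further apart than either SD. Among the muscle genes in DMSO, Tnnc2 stood at 25.6 ± 11.9 and Atp2a1 at 14.7 ± 5.87 CPM per kb, which differ by less than the SD of Tnnc2, ahead of Mybph at 6.22, Ckm at 1.03 and Myh7 at 0.0640. With the compound Atp2a1 stood at 15.5 CPM per kb, Tnnc2 at 8.07, Mybph at 6.80, Ckm at 0.773 and Myh7 at 0.161. In DMSO, counts per kb under the partner exceeded those under its muscle gene by 53.5-fold for Rabep2 and 118-fold for Ube2c. The excess was 317-fold for Adora1 and 690-fold for A930016O22Rik, the last resting on 7 counts of Ckm.

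Partner and muscle gene were next compared within each library, to ask whether the response of the counts under a partner differed from that under its muscle gene. The muscle gene held 1.40% of the counts of the Atp2a1 pair over the 6 libraries, and between 0.158% and 0.300% in the other pairs. For Atp2a1 this share was 1.21% ± 0.51 in DMSO and 2.05% ± 0.33 with the compound (SD, n = 3), and for Tnnc2 0.256% ± 0.060 and 0.148% ± 0.046. The groups did not overlap in either pair, with the compound higher for Atp2a1 and lower for Tnnc2. Over all 1138 tested opposite-strand pairs, the share under the gene with fewer counts was higher with the compound and without overlap in 11.3%, and lower in 14%. Over the 1138 pairs the gene with fewer counts held a median of 6.34%, and in 306 of them, or 26.9%, it held no more than the 1.40% of Atp2a1. A term for each library and an interaction of gene with treatment, fitted with edgeR to all 1138 pairs, called 96 pairs, or 8.44%, and none of the 5 listed. The difference of log2 changes, partner minus muscle gene, was -0.82 ± 0.34 (SE) for Rabep2 and Atp2a1 (adjusted p = 0.112, edgeR), with a 95% interval of -1.48 to -0.17. The interval does not include 0, but the unadjusted p of 0.0150 (edgeR) did not pass after adjustment. For Adora1 and Mybph the difference was -0.64 with an interval of -1.54 to 0.26 (adjusted p = 0.465, edgeR). Ube2c and Tnnc2 differed by 0.75, the other way, with an interval of -0.29 to 1.78 (adjusted p = 0.452, edgeR). The remaining pairs had intervals from -3.15 to 1.41 for Ckm and from -5.28 to 1.21 for Myh7. All 5 intervals are wide, so a pair that was not called may still differ.

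DMSO replicate 3 touched the 5 partners unequally. Its CPM was 98.6% of the mean of DMSO replicates 1 and 2 under D830015G02Rik and 95.2% under Rabep2. It was 71.2% under Adora1, 57.8% under A930016O22Rik and 49.9% under Ube2c. The longest coding transcripts of the muscle genes opposite them are 6230, 3477, 2320, 2742 and 700 bp in the same order. The percentages do not follow this order fully, and they do not follow that of the shortest coding transcripts, which are 345, 681, 1828, 1235 and 700 bp; which transcripts were present was not tested. Over the 1098 better-counted genes, the log2 ratio of DMSO replicate 3 to the other DMSO libraries had a median of -0.07 and ran from -0.86 to 0.48 between the 10th and 90th percentiles. Ube2c lay below that range, and the other partners within it. Whether RNA quality or fragment selection moved with length was not tested. Without this library all 5 partners stayed lower, by 1.66-fold to 3.28-fold.

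**Figure D3:**
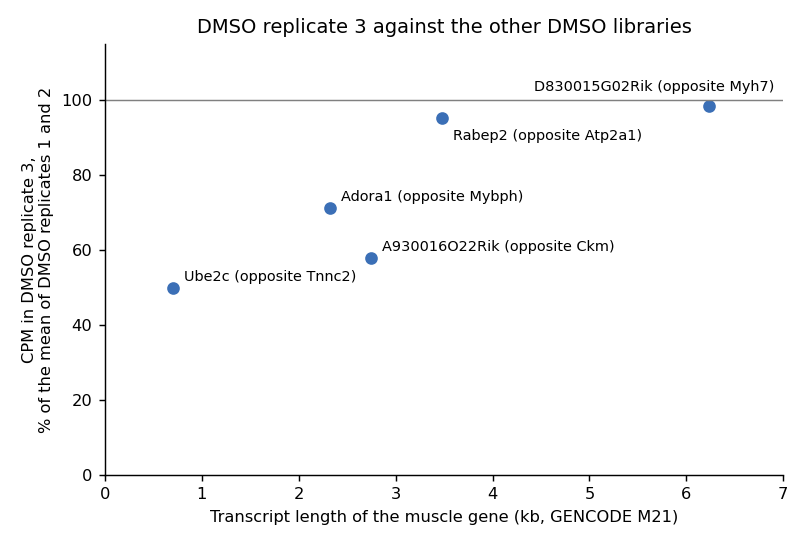
Level of each partner in DMSO replicate 3 as a percentage of the mean of DMSO replicates 1 and 2, against the longest coding transcript of the muscle gene opposite it in kb, with a grey line at 100%. The 2 partners opposite the longest of these transcripts lie at 95.2% and 98.6%, and Ube2c, opposite the shortest of them, at 49.9%. The other points go against the order of length: A930016O22Rik at 57.8% opposite 2742 bp and Adora1 at 71.2% opposite 2320 bp. The shortest coding transcripts give another order, and an effect of length was not tested.

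**Figure D4:**
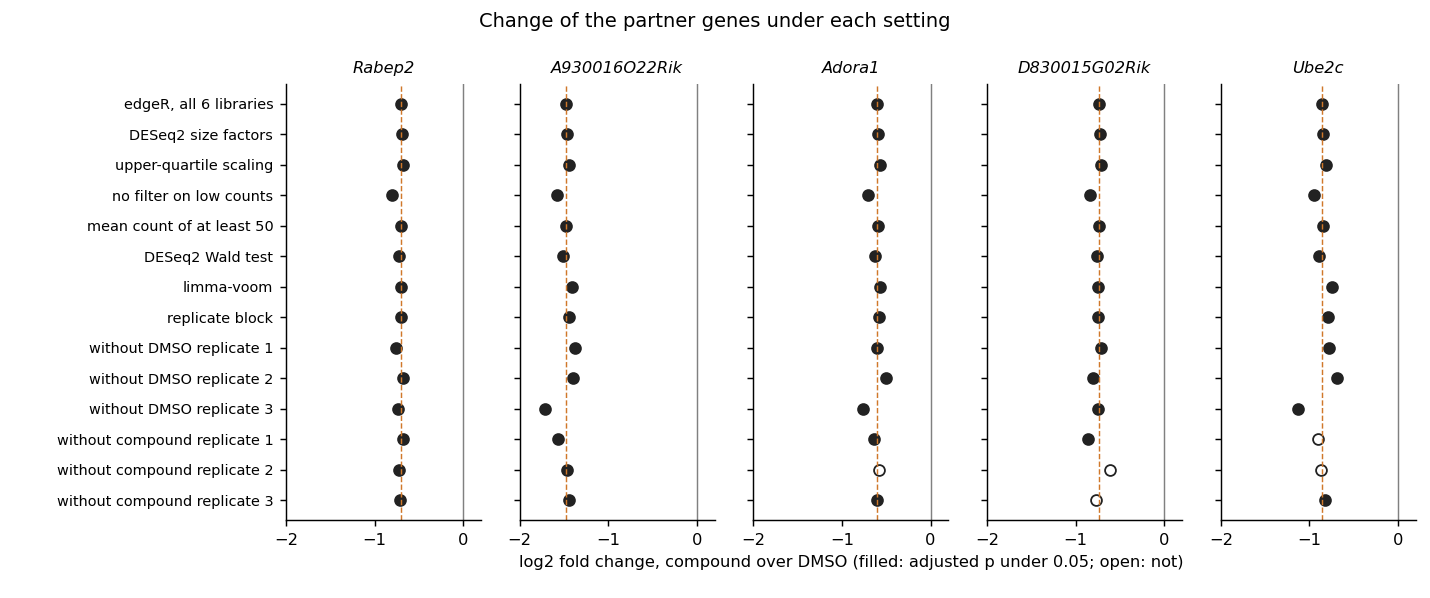
Log2 change of each partner, compound over DMSO, with all 6 libraries and under each of 13 alternative settings; filled points have an adjusted p under 0.05 and the dashed line is the value with all 6 libraries. All points lie below 0, and the open points, 2 for Ube2c, 2 for D830015G02Rik and 1 for Adora1, are fits without a compound library.

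Other genes of contraction had few counts under their own names. Of 50 listed, 45 had a count in some library and 12 had enough to test, of which 2 rose, 10 did not pass and none fell; of all 2440 tested genes 7.5% rose. The median log2 change of the 12 was 0.23. Desmin, Des, the muscle intermediate filament gene, rose from 60.8 ± 13.6 to 120.2 ± 20.2 CPM (SD, n = 3), a log2 change of 0.99 ± 0.26 (SE, adjusted p = 0.0160, edgeR). Beta-tropomyosin, Tpm2, which lies along the actin filament, rose from 40.3 ± 12.5 to 90.3 ± 22.9 CPM, or 1.20 ± 0.33 (adjusted p = 0.0199, edgeR). Both calls were lost without compound replicate 1 or compound replicate 2, and that of Des also without DMSO replicate 2 (adjusted p up to 0.0852 for Des and 0.106 for Tpm2, edgeR). DESeq2 called neither, with an adjusted p of 0.0566 for Des and 0.0606 for Tpm2. Neither has an opposite-strand gene of the table on its exons.

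Among the other thin filament genes, troponin T genes Tnnt2 and Tnnt1 had log2 changes of -0.36 and -0.22, Tnnt3 of 0.50 and nebulin, Neb, of -0.63. Of the thick filament genes, embryonic myosin Myh3 stood at 0.31 and the fast myosin gene Myh2 at -0.70, with 21, 20 and 24 counts in DMSO and 10, 7 and 9 with the compound. Myl4, an atrial and embryonic light chain gene, had a mean count of 4.83 and was not tested. In the scaffold list titin, Ttn, had -0.22, and Myom2, of the M band, a mean count of 4.83. Of the calcium-handling genes, Atp2a2, the pump gene of slow muscle and heart, had 0.29, the calcium release channel gene Ryr1 1.01 ± 0.46 and the junctophilin gene Jph2 0.17. None of these passed (adjusted p of 0.157 to 0.841, edgeR). No gene of energy supply could be tested: Eno3, the muscle enolase gene, Mb, myoglobin, and Ckb, brain creatine kinase, had mean counts of 3.33, 2.67 and 1.17. Tcap, Sln, Pygm, Ckmt1 and Myl3 had 0 counts in all libraries.

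A well-counted gene on the opposite strand was not found at the other contraction genes. Of the 50, 21 have an opposite-strand exon overlap in GENCODE M21, but for only 6 is the overlapping gene in the table. Those 6 opposite-strand genes had mean counts of 0 to 7.67, the highest under Myl12a opposite Myom1. The 5 partners above had mean counts of 166 to 5797.

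Relatives of the partners showed no second well-counted receptor or endosome gene. Of 6 genes of Rab5 endosomes none could be tested, with Rab5a, Rabep1 and Eea1 at mean counts of 9.50, 7.17 and 1.17. Adora2b, an adenosine receptor gene, had a mean count of 2.33, and Adora2a and Adora3 had 0 counts in all libraries. In the list of the anaphase-promoting complex, with which Ube2c works, 2 of 12 genes could be tested. Cdc23, a subunit gene, fell from 2732 ± 1118 to 1192 ± 83.2 CPM (SD, n = 3), a log2 change of -1.19 ± 0.24 (SE, adjusted p = 0.00311, edgeR). Cdc23 had a mean count of 1193, and Cdc27, the next highest of this list, 16.7. The exons of Cdc23 overlap those of the mitotic kinesin gene Kif20a on the opposite strand in GENCODE M21. Which gene the reads under Cdc23 came from was not tested. Cdc27, another subunit gene, had a log2 change of 0.47 ± 0.47 (adjusted p = 0.544, edgeR), and Anapc11 a mean count of 6.33.

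The promoters of the 2 most changed partners and of the muscle genes opposite them are shown for reference. Whether any of these promoters had a part in the change of the counts was not tested. RefSeq (GRCm38.p6) held a promoter, 250 bases before to 50 after the start, for all 10 genes. Capitals mark the E-box letters CANNTG, the motif bound by myogenic factors such as MyoD, in the muscle genes, and the CCAAT box, CCAAT on either strand, in the partners. Positions are chr7:19410844-19411143, plus strand, for Ckm, chr2:164779685-164779984, minus strand, for Tnnc2, chr7:19421368-19421667, minus strand, for A930016O22Rik, and chr2:164769679-164769978, plus strand, for Ube2c.
Ckm: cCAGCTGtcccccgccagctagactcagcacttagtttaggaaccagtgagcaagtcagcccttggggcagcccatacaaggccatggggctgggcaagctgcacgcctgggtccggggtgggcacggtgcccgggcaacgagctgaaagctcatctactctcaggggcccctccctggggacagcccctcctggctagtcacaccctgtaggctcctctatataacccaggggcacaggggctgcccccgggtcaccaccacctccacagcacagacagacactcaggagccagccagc
Tnnc2: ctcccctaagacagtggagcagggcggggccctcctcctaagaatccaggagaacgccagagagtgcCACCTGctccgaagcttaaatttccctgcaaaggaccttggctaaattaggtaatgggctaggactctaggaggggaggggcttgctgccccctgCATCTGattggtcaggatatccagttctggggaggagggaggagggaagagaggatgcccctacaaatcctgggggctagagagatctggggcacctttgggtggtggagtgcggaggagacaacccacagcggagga
A930016O22Rik: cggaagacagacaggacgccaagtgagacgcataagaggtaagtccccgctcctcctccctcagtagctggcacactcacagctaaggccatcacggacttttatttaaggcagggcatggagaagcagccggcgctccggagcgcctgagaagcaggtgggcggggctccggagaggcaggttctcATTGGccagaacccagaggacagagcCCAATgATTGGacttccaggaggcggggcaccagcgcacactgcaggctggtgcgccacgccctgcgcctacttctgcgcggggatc
Ube2c: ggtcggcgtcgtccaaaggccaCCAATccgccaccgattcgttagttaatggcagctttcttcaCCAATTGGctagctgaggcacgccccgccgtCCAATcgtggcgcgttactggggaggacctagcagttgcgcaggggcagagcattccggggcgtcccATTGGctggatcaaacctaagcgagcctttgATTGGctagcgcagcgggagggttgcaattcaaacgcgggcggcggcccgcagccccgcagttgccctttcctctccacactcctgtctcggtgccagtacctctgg

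The Ube2c promoter held 6 CCAAT boxes, of which 1 pair overlaps, and the A930016O22Rik promoter held 3; 37.4% of 32851 RefSeq promoters hold at least 1. Rabep2 had 1, and Adora1, with 2 promoters listed, and D830015G02Rik had none in these windows. CCAAT boxes were not limited to partners: Atp2a1, Tnnc2 and each of the 2 listed Myh7 promoters also had 1. The box of Tnnc2 is not capitalised above. Ckm and Mybph had none. The letters TTTGAA on either strand, the core of the cell cycle homology region of mitotic genes, occurred once in the Ube2c promoter and in no other of the 10 genes, against 17.9% of all promoters. E-boxes were found in the promoters of all 5 muscle genes, 2 in Tnnc2 and Myh7 and 1 in the others, but 72.3% of all promoters hold one. E-boxes also lay in promoters of all 5 partners. No CArG box or MEF2 site was found in these windows, as in most promoters, of which 1.63% and 3.19% hold one.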

How the data were processed

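RNA-seq of 3 DMSO and 3 compound samples was used as 1 deposited table of 24725 rows, in which 930 identifiers stood in more than 1 row and were used once. The submitters' processing notes list mm10, STAR 2.3.0e and HTSeq 0.6.0; neither a strand setting nor an annotation release is given in the sources used here. The deposited values are raw read counts per gene. The table also holds the authors' size-factor-normalized signal, log2 fold changes with their standard errors, a test score, and p-values with adjusted p-values, used only where the authors' table is named. The main test was the quasi-likelihood F test of edgeR 4.0.16 in R 4.3.3, after filterByExpr and TMM scaling, with Benjamini-Hochberg adjustment over 2440 genes and a threshold of 0.05; the SE of a log2 change is its size divided by the square root of F. Opposite-strand pairs were tested with a gene by compound interaction and library terms, with intervals from the SE at 95%. Scripts were tested on simulated counts. Alternatives were other scalings, filters, DESeq2 1.42.0, limma 3.58.1 (voom), a replicate block and leaving out each library. Library totals of 493406 to 952813 limit genes under about 10 counts. The genes named are the 10 members, listed contraction genes and partner relatives that passed, and the 3 most counted of each list; the troponin T genes and genes at 0 were named after their values were seen. Members and lists were chosen with earlier results of these data known.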

Additional observations from a re-analysis of the deposited data

How the results depend on the processing

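All 5 partners kept an adjusted p under 0.05 and a negative log2 change under both other scalings, no filter on low counts, a minimum mean count of 50, DESeq2, limma-voom and the replicate block. Leaving out 1 library gave 2 to 6 of the 10 genes lower, 143 to 359 genes lower and 93 to 259 higher in all, 30 to 104 pairs called, and 0 to 2 other contraction genes higher. Without compound replicate 2, Ube2c, Adora1 and D830015G02Rik lost their calls; the 6 genes lower without DMSO replicate 3 include Tnnc2, which entered that fit through its DMSO counts and is no support. The cause was not tested. The log2 change of Atp2a1 was -0.00031 with no filter and -0.11 to 0.42 with 1 library left out. The difference A930016O22Rik minus Ckm ran from -1.48 to 2.61 and D830015G02Rik minus Myh7 from -3.76 to 0.95, on at most 10 counts of the muscle gene. DESeq2 called 114 genes higher and 0 other contraction genes; a mean count of at least 50 left 1. Same-numbered samples deviated with correlations of -0.012, 0.017 and 0.021. The labels state no pairing, and with so few samples these correlations cannot exclude one. The replicate block gave 197 genes higher and 245 lower, with Ube2c at -0.79, and changed no call among the 10 genes. With the block the 5 partners had adjusted p of 6.00e-07 to 0.0130, against 1.12e-04 to 0.0163 without it (edgeR). Genes under about 10 counts are limited by depth.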
